A study of Mus musculus with 12 samples.

Results

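The genes described here copy DNA or supply its nucleotides: 43 members, chosen by symbol from the 24411 genes of the deposited tables. The choice was made with earlier results of these data known. All 43 were found, and all 43 passed the filter on low counts that left 14311 genes to test. The samples are RNA sequencing libraries of the cerebral cortex, each from 1 embryo, in 4 groups of 3. The groups are wild type (WT) and knock-in embryos (HARE5Hs/Hs) at embryonic stage E12.5, and the same genotypes at the later stage E14.5. The HARE5 enhancer acts on Fzd8, a Wnt receptor gene, and HARE5Hs/Hs embryos carry its human sequence on both alleles. No drug or other allele is labelled, and the labels name no strain, litter or sex. A dissected cortex holds progenitors, neurons, vessels and blood together, so fewer cells of a type and less RNA per cell cannot be told apart in these values.

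Cells copy their DNA once per cycle, in S phase. In G1, the origin recognition complex with Cdc6 and Cdt1 loads the ring-shaped MCM2-7 helicase onto origins, a step called licensing. Cdc45, the GINS complex and Mcm10 then turn the loaded helicase on. Polymerase alpha with its primase starts each strand, polymerase epsilon extends the leading strand and polymerase delta the lagging strand, both held by the sliding clamp PCNA, which the RFC complex loads. RPA coats exposed single strands, and Fen1, RNase H2 and Lig1 turn Okazaki fragments into 1 continuous strand. Ribonucleotide reductase, thymidylate synthase and thymidine kinase supply deoxynucleotides. In the embryonic cortex, radial glia and intermediate progenitors cycle, whereas neurons have left the cycle and do not copy their DNA.

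Total expected counts ran from 11593202 to 17670103 per library. The lowest count of a member in any library was 72, in Orc1. No pair of libraries within a group looked like 1 library deposited again, as their counts differed by 11.6 to 26.4 times the sampling variance per gene. Emx1, a transcription factor gene of the dorsal telencephalon from which the cortex forms, stood at 47.1 to 76.9 CPM at E12.5 and 57.9 to 70.8 CPM at E14.5, so the labelled tissue was seen in every library. E14.5 HARE5Hs/Hs replicate 3 stood apart. It had the lowest total count (11593202) and the fewest detected genes (14537), and the part of depth in that gene number was not tested. It held 10.7 CPM over 7 meninges genes, against 86.6 to 804 CPM in the other E14.5 libraries. Over 6 choroid plexus and hem genes it held 26.0 CPM, against 68.9 to 709.7 CPM. Among E12.5 libraries, HARE5Hs/Hs replicate 1 stood apart, with 2412 CPM over 12 neuron genes against 1320.3 to 1510.4 CPM in the other 5, and 161 CPM over 6 ventral telencephalon genes against 3.46 to 79.9 CPM. Xist, which marks XX embryos, was near 0 in 4 libraries, 1 in each group. CPM are counts scaled to library size (TMM), and values of a group are given in the order of replicates 1, 2 and 3.

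Replication genes fell from E12.5 to E14.5 in both genotypes. In WT, 35 of 43 members fell and 0 rose, against 15.2% of all genes tested that fell and 20.0% that rose. In HARE5Hs/Hs, 41 of 43 fell and 0 rose, against 22.0% of all genes that fell and 23.7% that rose. A call here means a Benjamini-Hochberg adjusted p under 0.05 (over all 14311 genes) from the quasi-likelihood test of edgeR, and every change is a log2 fold change with its standard error (SE). All 43 members had a change below 0 in each genotype, including those that did not pass. The median over members was −0.43 in WT and −0.67 in HARE5Hs/Hs, beside −0.009 and −0.031 over all genes tested. The members that did not pass in WT were Gins1, Gins3, Gins4, Pola1, Prim2, Rpa1, Rpa3 and Rnaseh2a, and those that did not pass in HARE5Hs/Hs were Gins4 and Rpa3. In the authors' deposited tables, 35 members fell in WT, beside 16.0% of genes with an adjusted p, and 39 fell in HARE5Hs/Hs, beside 20.7%. The WT count was 20 when E12.5 WT replicate 2 was left out and 23 when E14.5 WT replicate 1 was; for HARE5Hs/Hs it stayed between 38 and 42 whichever library was left out.

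**Figure D1:**
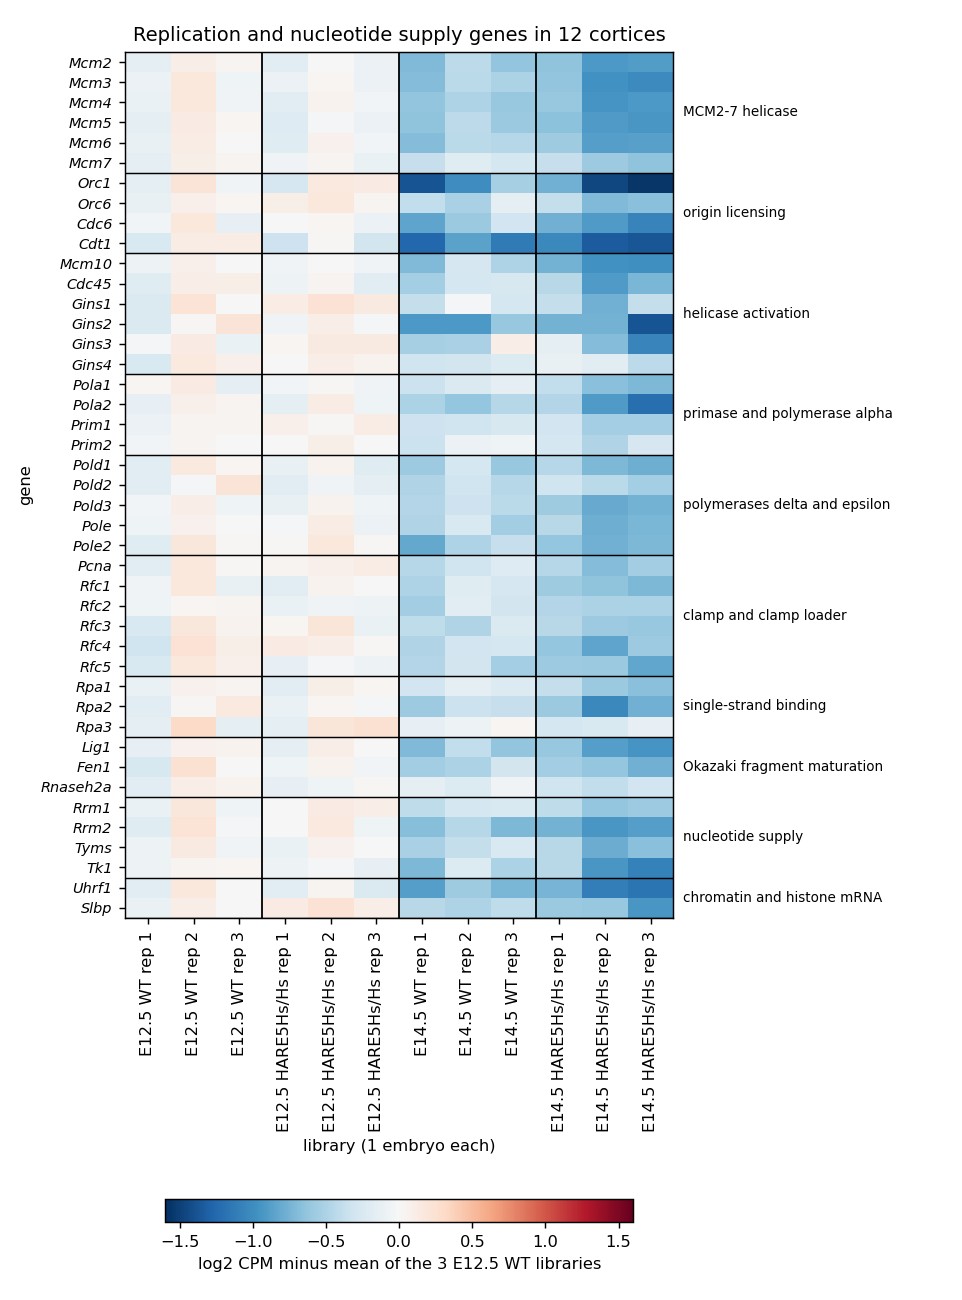
Each cell is a gene's log2 CPM in 1 library minus the mean of the 3 E12.5 WT libraries, with the 43 members in rows by role and the 12 embryos in columns. The E14.5 columns are blue, apart from near-white or red cells of Gins1, Gins3, Rpa3 and a few others in single libraries, and the deepest values lie in Orc1, Cdt1 and Gins2.

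Summed over the 43 members, E12.5 WT cortices held 6177, 7443 and 6825 CPM and E12.5 HARE5Hs/Hs cortices 6379, 7105 and 6582 CPM. At E14.5 the sums were 4581, 5265 and 5033 CPM in WT and 4669.9, 3938 and 3909 CPM in HARE5Hs/Hs. The ages did not overlap, and HARE5Hs/Hs replicate 1 lay among the WT libraries at E14.5 while replicates 2 and 3 lay below them. As a share of all counts the members took 0.642 to 0.754% at E12.5 and 0.370 to 0.513% at E14.5. Taken gene by gene, the libraries of the ages did not overlap for 35 members in WT, all lower at E14.5, beside 22.9% of all genes. In HARE5Hs/Hs they did not overlap for 42, all lower at E14.5, beside 29.6% of all genes. The 35 without overlap in WT are not the same 35 that fell.

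Within a group, the members tended to be high or low together in an embryo. E12.5 WT replicate 2 was the highest of its group for 39 of 43 members and replicate 1 the lowest for 38. Among E12.5 HARE5Hs/Hs embryos, replicate 2 was highest for 37 members and replicate 1 lowest for 28. E14.5 WT replicate 1 was lowest for 34 members, and E14.5 HARE5Hs/Hs replicate 1 was highest for 38. Set against the mean of E12.5 WT, the median member stood at −0.52, −0.33 and −0.37 in the E14.5 WT libraries and at −0.48, −0.77 and −0.76 in the E14.5 HARE5Hs/Hs libraries, while the median of all genes stayed between −0.042 and 0.026 in every library. The deposited labels give no stage finer than the embryonic day.

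Marker genes of several cell types changed with age too, in RNA of whole cortices. Among neuron genes (12, such as Tubb3, Dcx and Map2), WT showed 11 that rose and HARE5Hs/Hs 12, beside the 20.0% and 23.7% of all genes that rose. Their summed level was 1320.3 to 2412 CPM at E12.5. The E14.5 sums were 4672, 3971 and 3556 CPM in WT and 4375, 5928 and 6327 CPM in HARE5Hs/Hs, none of these genes being at 0 in any library. Of 10 radial glia genes (such as Pax6, Sox2, Nes and Fabp7), 2 rose and 3 fell in WT, and 1 rose and 7 fell in HARE5Hs/Hs. Over all genes, 15.2% and 22.0% fell. The list did not move 1 way: Sox2 was lower and Fabp7 higher in every E14.5 library than in every E12.5 library. The radial glia sums were 2884 to 3362 CPM at E12.5 and 2516 to 2782 CPM at E14.5. Intermediate progenitor genes (6) rose for 5 in WT and 4 in HARE5Hs/Hs, from sums of 379 to 527 CPM to 823 to 921 CPM. Endothelial genes fell for 5 of 6 in WT and 6 of 6 in HARE5Hs/Hs (246 to 345 CPM at E12.5, 91.5 to 204 CPM at E14.5), and meninges genes for 3 and 6 of 7 (1123 to 2122 CPM at E12.5, 10.7 to 804 CPM at E14.5). Choroid plexus and hem genes fell for 2 and 3 of 6 (179 to 442 CPM at E12.5, 26.0 to 709.7 CPM at E14.5), and erythroid genes for 4 and 3 of 7 tested (3347 to 12008 CPM, then 736 to 5724 CPM). Microglia genes fell for 1 of 6 in each genotype (42.0 to 60.0 CPM, then 22.0 to 47.1 CPM), and ventral telencephalon genes for 0 and 1 of 6 (3.46 to 161 CPM, then 11.9 to 73.3 CPM). The counts of the microglia and ventral telencephalon lists were near or below the shares of all genes that fell. Those of the choroid plexus and hem list and of the erythroid list were larger shares than over all genes. At E14.5 the library lowest in the neuron sum, WT replicate 3, was not the highest in the member sum, and the 2 libraries highest in the neuron sum, HARE5Hs/Hs replicates 2 and 3, were the lowest in the member sum. The part of these cell types in the fall of the members was not tested.

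As a sum, the members were lower at E14.5 relative to genes used later in the same cycle. The sum over members divided by the sum over 16 mitosis genes (such as Mki67, Plk1 and Aurkb) was 1.56, 1.61 and 1.83 in E12.5 WT and 1.53, 1.59 and 1.56 in E12.5 HARE5Hs/Hs. At E14.5 it was 1.40, 1.41 and 1.33 in WT and 1.37, 1.39 and 1.35 in HARE5Hs/Hs, so the ages did not overlap and the genotypes at E14.5 did. Such sums weigh abundant genes most, such as Mki67. Its means at E12.5 and E14.5 were 1102 and 1092 CPM in WT and 1220 and 972 CPM in HARE5Hs/Hs. Gene by gene, the median age change in WT was −0.43 for members and −0.30 for mitosis genes. In HARE5Hs/Hs these medians were closer, at −0.67 and −0.61. Divided by the radial glia sum, the members gave 1.94 to 2.31 at E12.5 and 1.54 to 1.90 at E14.5, again without overlap. Nes (757 to 1141 CPM over all libraries) and Vim (732 to 1296 CPM) weigh most in the radial glia sum, so the ratio is not a level per radial glial cell. At E14.5 that second ratio was 1.68, 1.89 and 1.90 in WT and 1.73, 1.57 and 1.54 in HARE5Hs/Hs, with replicate 1 of HARE5Hs/Hs inside the WT range. These ratios do not depend on how libraries are scaled.

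**Figure D2:**
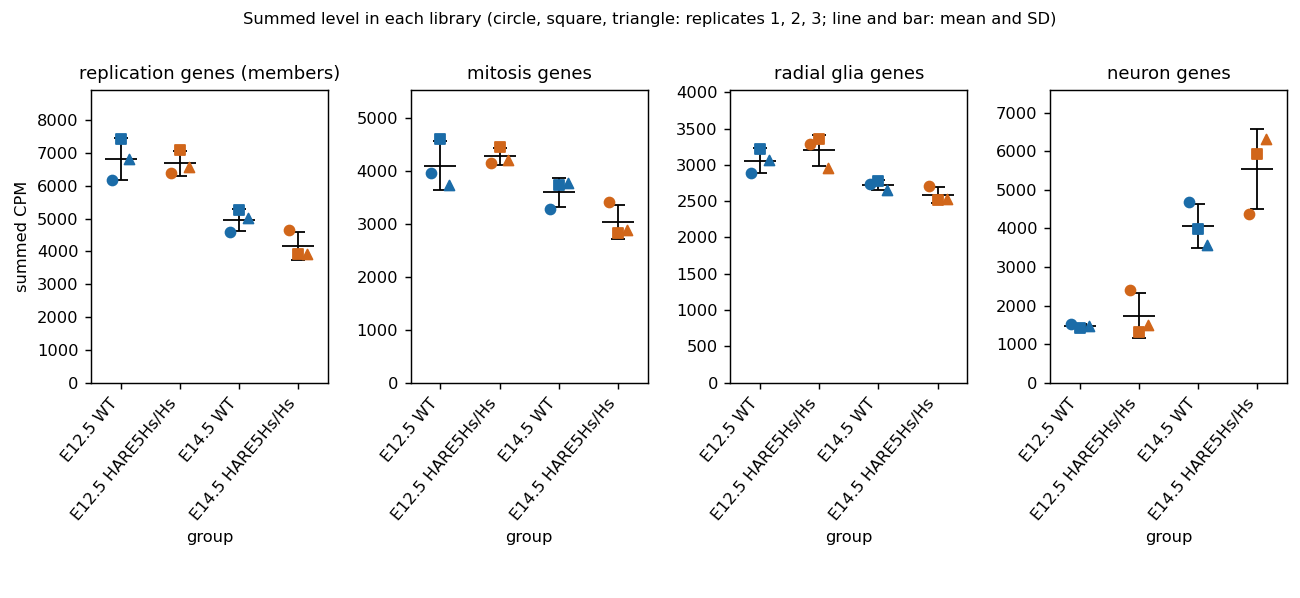
Each point is 1 of 12 embryos, by group, for the summed CPM of the members and of the mitosis, radial glia and neuron genes, with lines and bars for mean and SD. The member sum drops from E12.5 to E14.5 without overlap, and the neuron sum climbs from at most 2412 CPM to at least 3556 CPM.

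Orc1, Cdt1, Uhrf1 and Rrm2 were picked, with their values known, as members with large falls and a start-site window that holds a searched motif. Their promoters are shown because many S phase genes are controlled through E2F sites near the start. Where a gene had several windows, the one with the most E2F spellings was printed. The windows run from 250 bases before to 50 bases after the RefSeq start site, in GRCm38.p6, a build other than the authors' mm39. Capitals mark 2 motifs searched on both strands: E2F (TTTCCCGC, TTTCGCGC, TTTGCCGC or TTTGGCGC) and CCAAT, the box bound by NF-Y.
Orc1 (chr4:108579204-108579503, plus strand): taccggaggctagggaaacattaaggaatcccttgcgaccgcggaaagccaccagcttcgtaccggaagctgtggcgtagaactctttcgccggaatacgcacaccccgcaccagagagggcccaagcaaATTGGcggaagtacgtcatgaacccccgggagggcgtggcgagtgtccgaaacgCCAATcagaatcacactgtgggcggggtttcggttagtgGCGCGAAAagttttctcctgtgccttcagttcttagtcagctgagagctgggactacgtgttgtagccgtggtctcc
Cdt1 (chr8:122567765-122568064, plus strand): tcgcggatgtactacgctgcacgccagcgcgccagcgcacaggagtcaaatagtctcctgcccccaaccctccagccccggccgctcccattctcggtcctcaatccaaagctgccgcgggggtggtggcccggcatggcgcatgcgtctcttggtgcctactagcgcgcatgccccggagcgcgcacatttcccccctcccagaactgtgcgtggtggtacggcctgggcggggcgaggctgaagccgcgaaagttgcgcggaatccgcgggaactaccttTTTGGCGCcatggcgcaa
Uhrf1 (chr17:56304063-56304362, plus strand): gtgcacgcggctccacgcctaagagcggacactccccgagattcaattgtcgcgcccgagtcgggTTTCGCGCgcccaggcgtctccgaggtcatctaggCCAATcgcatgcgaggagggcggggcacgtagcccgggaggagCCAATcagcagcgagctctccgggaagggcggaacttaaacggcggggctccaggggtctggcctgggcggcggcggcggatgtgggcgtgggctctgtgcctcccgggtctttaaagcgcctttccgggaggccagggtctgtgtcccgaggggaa
Rrm2 (chr12:24708004-24708303, plus strand): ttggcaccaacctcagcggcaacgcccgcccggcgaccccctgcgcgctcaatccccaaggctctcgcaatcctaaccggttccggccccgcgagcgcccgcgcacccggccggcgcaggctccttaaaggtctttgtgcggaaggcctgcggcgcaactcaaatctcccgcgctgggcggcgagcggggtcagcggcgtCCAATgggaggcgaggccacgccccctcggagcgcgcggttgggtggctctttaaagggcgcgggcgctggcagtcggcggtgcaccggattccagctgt
Orc1 holds an E2F spelling on the minus strand, its first base at −27 from the start site, and a CCAAT box on each strand. Cdt1 holds an E2F spelling at 33, after the start site, and no CCAAT. The printed window of Uhrf1, 1 of its 2, holds an E2F spelling at −185 from the start and 2 CCAAT boxes. Its other window holds no E2F spelling. Rrm2 holds 1 CCAAT box, at −50, and none of the E2F letters.

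Of the 43 members, 36 have a window in that table, and 15 of 36 (41.7%) hold an E2F spelling, beside 4.58% of 10818 tested genes with a window. Counted by window, the shares are 35.7% of 42 member windows and 2.26% of 32851 windows. With 2 of the spellings (TTTCGCGC and TTTGGCGC), 30.6% of members held one, beside 1.77% of tested genes. CCAAT stood in 66.7% of members and 42.9% of tested genes, and TTTGAA, the letters of the CHR element of mitotic promoters, in 13.9% and 13.8%. Averaged over both genotypes, the median age change was −0.64 over the 15 members with an E2F spelling (range −1.09 to −0.39), −0.52 over the 21 without (−0.75 to −0.20), and −0.46 over the 7 with no window. The ranges overlap, and these letters in a window describe the sequence, not binding of a factor.

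The 6 subunits of the MCM2-7 helicase, the ring that unwinds DNA at the fork, all fell in both genotypes, with a median age change of −0.55 in WT (range −0.59 to −0.29) and −0.72 in HARE5Hs/Hs (range −0.81 to −0.49). Mcm3, one of those subunits and the largest faller of the ring averaged over genotypes, measured 332, 397 and 337 CPM in E12.5 WT and 331, 361 and 330.3 CPM in E12.5 HARE5Hs/Hs. At E14.5 Mcm3 measured 219, 262 and 249 CPM in WT and 228, 181 and 174 CPM in HARE5Hs/Hs. For Mcm3, all 6 E14.5 libraries lay below all 6 E12.5 libraries, and the lowest E14.5 library was HARE5Hs/Hs replicate 3. Mcm3 fell by 0.55 (SE 0.11, edgeR adjusted p = 0.00301) in WT and by 0.81 (SE 0.11, edgeR adjusted p = 0.000194) in HARE5Hs/Hs. Mcm5, another ring subunit, measured 318, 389.9 and 363 CPM in E12.5 WT and 308, 349.5 and 334 CPM in E12.5 HARE5Hs/Hs. At E14.5 Mcm5 measured 228, 267 and 235 CPM in WT and 225, 189.9 and 187 CPM in HARE5Hs/Hs. For Mcm5, all 6 E14.5 libraries lay below all 6 E12.5 libraries, and the lowest E14.5 library was HARE5Hs/Hs replicate 3. All 3 HARE5Hs/Hs values of Mcm5 at E14.5 lay below the 3 WT values. Such a separation at E14.5, given here and for genes below, was seen for 8.93% of all genes tested. By edgeR's test, 0 members differed between the genotypes at that age. Mcm5 fell by 0.55 (SE 0.10, edgeR adjusted p = 0.00157) in WT and by 0.72 (SE 0.10, edgeR adjusted p = 0.000209) in HARE5Hs/Hs. Mcm7, the subunit that fell least, measured 418, 494 and 476 CPM in E12.5 WT and 442, 477 and 427 CPM in E12.5 HARE5Hs/Hs. At E14.5 Mcm7 measured 359, 402 and 378 CPM in WT and 358, 307 and 294 CPM in HARE5Hs/Hs. For Mcm7, all 6 E14.5 libraries lay below all 6 E12.5 libraries, and the lowest E14.5 library was HARE5Hs/Hs replicate 3, with all 3 HARE5Hs/Hs values at that age below the 3 WT values. Mcm7 fell by 0.29 (SE 0.091, edgeR adjusted p = 0.0284) in WT and by 0.49 (SE 0.091, edgeR adjusted p = 0.00111) in HARE5Hs/Hs. Mcm7 did not pass in WT when any one of E12.5 WT replicate 2 or 3 or E14.5 WT replicate 1 or 3 was left out, with a change of −0.22 to −0.27. Without a filter on low counts Mcm7 also did not pass in WT, at −0.27. The span of Mcm7 overlaps Ap4m1 and 3 microRNA genes in the GRCm38 annotation, and the sources used here do not give the strand setting of the authors' counting. Levels between genes can be set against each other only per length, in the authors' FPKM. In E12.5 WT, Mcm7 was highest at 210.2 ± 18.1 FPKM (SD, n = 3), followed by Mcm6 at 137 ± 11.1, Mcm3 at 132 ± 13.4, Mcm2 at 116 ± 10.4 and Mcm5 at 110.2 ± 11.3, and Mcm4 was lowest at 73.7 ± 7.68. Mcm7 lay above and Mcm4 below all others, while the neighbours from Mcm6 to Mcm5 in that order overlapped between libraries.

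**Figure D3:**
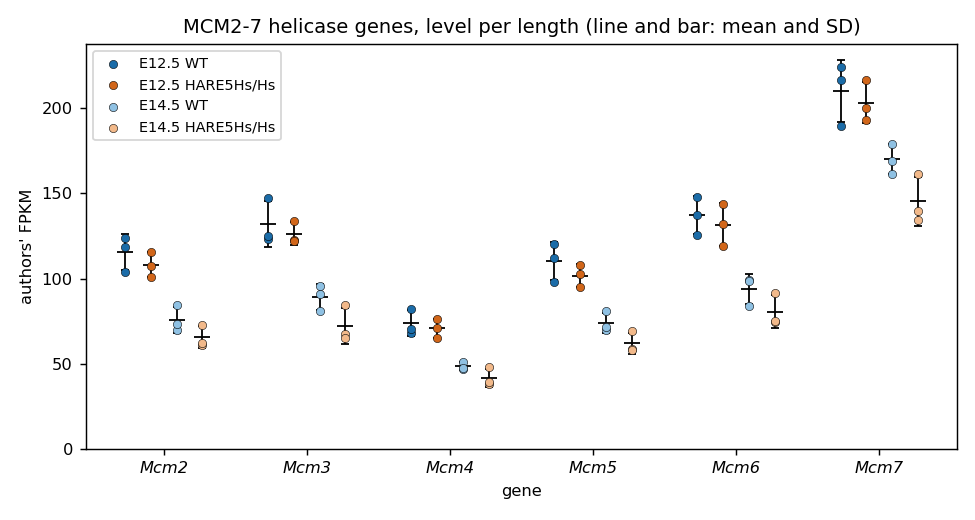
Points are single embryos and give the authors' FPKM of the 6 MCM2-7 subunits by group. Mcm7 is highest and Mcm4 lowest in every group shown, and each subunit is lower at E14.5.

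Licensing genes fell the most of the roles with 3 or more members in each genotype. All 4 fell in both, with a median age change of −0.76 in WT (range −1.08 to −0.35) and −0.97 in HARE5Hs/Hs (range −1.24 to −0.68). Cdt1, the factor that brings MCM2-7 to the origin, measured 71.0, 91.5 and 91.4 CPM in E12.5 WT and 66.5, 85.2 and 68.2 CPM in E12.5 HARE5Hs/Hs. At E14.5 Cdt1 measured 35.1, 46.4 and 38.4 CPM in WT and 41.0, 33.2 and 32.4 CPM in HARE5Hs/Hs. For Cdt1, all 6 E14.5 libraries lay below all 6 E12.5 libraries, and the lowest E14.5 library was HARE5Hs/Hs replicate 3. Cdt1 fell by 1.08 (SE 0.15, edgeR adjusted p = 0.000328) in WT and by 1.04 (SE 0.15, edgeR adjusted p = 0.000216) in HARE5Hs/Hs. Orc1, the origin recognition subunit whose level varies through the cycle, measured 17.5, 22.6 and 18.7 CPM in E12.5 WT and 16.2, 21.7 and 21.3 CPM in E12.5 HARE5Hs/Hs. At E14.5 Orc1 measured 7.37, 9.72 and 13.4 CPM in WT and 11.4, 7.02 and 6.56 CPM in HARE5Hs/Hs. For Orc1, all 6 E14.5 libraries lay below all 6 E12.5 libraries, and the lowest E14.5 library was HARE5Hs/Hs replicate 3. Orc1 fell by 0.95 (SE 0.25, edgeR adjusted p = 0.0125) in WT and by 1.24 (SE 0.26, edgeR adjusted p = 0.00205) in HARE5Hs/Hs. Orc6, the smallest subunit of the same complex, measured 58.6, 67.2 and 64.7 CPM in E12.5 WT and 67.8, 71.0 and 65.2 CPM in E12.5 HARE5Hs/Hs. At E14.5 Orc6 measured 48.1, 44.3 and 57.0 CPM in WT and 48.6, 38.7 and 39.9 CPM in HARE5Hs/Hs. For Orc6, all 6 E14.5 libraries lay below all 6 E12.5 libraries, and the lowest E14.5 library was HARE5Hs/Hs replicate 2. Orc6 fell by 0.35 (SE 0.11, edgeR adjusted p = 0.028) in WT and by 0.68 (SE 0.11, edgeR adjusted p = 0.00054) in HARE5Hs/Hs. Orc1 did not pass in WT when any one of E12.5 WT replicate 2 or E14.5 WT replicate 1 was left out, with a change of −0.78 to −0.82. Orc6 did not pass in WT when any one of E12.5 WT replicate 2 or 3 or E14.5 WT replicate 1 or 2 was left out, with a change of −0.29 to −0.35. Orc1 overlaps Prpf38a in the GRCm38 annotation. Cdc6, the loader that works with Orc1, fell in both genotypes as well. Mean FPKM in E12.5 WT was 44.3 for Orc6, 42.4 for Cdt1, 13.5 for Cdc6 and 6.96 for Orc1, and of these neighbours only Orc6 and Cdt1 overlapped.

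Of the 6 helicase activation genes, 3 fell in WT and 5 in HARE5Hs/Hs, with a median age change of −0.33 in WT (range −0.82 to −0.24) and −0.68 in HARE5Hs/Hs (range −0.94 to −0.29). Gins2, a subunit of the GINS complex, measured 37.0, 43.8 and 50.1 CPM in E12.5 WT and 41.5, 46.7 and 42.6 CPM in E12.5 HARE5Hs/Hs. At E14.5 Gins2 measured 22.8, 22.9 and 28.3 CPM in WT and 25.6, 25.6 and 16.5 CPM in HARE5Hs/Hs. For Gins2, all 6 E14.5 libraries lay below all 6 E12.5 libraries, and the lowest E14.5 library was HARE5Hs/Hs replicate 3. Gins2 fell by 0.82 (SE 0.17, edgeR adjusted p = 0.00306) in WT and by 0.94 (SE 0.17, edgeR adjusted p = 0.000871) in HARE5Hs/Hs. Gins4, another GINS subunit, measured 32.3, 42.9 and 40.7 CPM in E12.5 WT and 38.6, 41.3 and 39.8 CPM in E12.5 HARE5Hs/Hs. At E14.5 Gins4 measured 30.8, 31.2 and 32.8 CPM in WT and 35.4, 33.7 and 28.5 CPM in HARE5Hs/Hs. For Gins4, the ages did not overlap in HARE5Hs/Hs but did in WT, and the lowest E14.5 library was HARE5Hs/Hs replicate 3. Gins4 had an age change of −0.29 (SE 0.12, edgeR adjusted p = 0.0706) in WT, which did not pass, and of −0.29 (SE 0.12, edgeR adjusted p = 0.0567) in HARE5Hs/Hs, which did not pass. Mcm10, which helps the loaded helicase start unwinding, measured 82.9, 92.2 and 87.6 CPM in E12.5 WT and 84.1, 87.3 and 84.4 CPM in E12.5 HARE5Hs/Hs. At E14.5 Mcm10 measured 53.4, 72.6 and 62.0 CPM in WT and 51.5, 44.7 and 44.2 CPM in HARE5Hs/Hs. For Mcm10, all 6 E14.5 libraries lay below all 6 E12.5 libraries, and the lowest E14.5 library was HARE5Hs/Hs replicate 3, with all 3 HARE5Hs/Hs values at that age below the 3 WT values. Mcm10 fell by 0.48 (SE 0.10, edgeR adjusted p = 0.00417) in WT and by 0.86 (SE 0.11, edgeR adjusted p = 0.000106) in HARE5Hs/Hs. Gins4 passed in WT when E12.5 WT replicate 1 was left out, with a change of −0.43. Gins4 passed in HARE5Hs/Hs when E14.5 HARE5Hs/Hs replicate 1 was left out, with a change of −0.36. Gins4 also passed in WT with DESeq2 size factors and with the DESeq2 Wald test, at −0.31 in each. With log2 CPM of Xist as a covariate it passed in both genotypes, at −0.29 in each. Gins1 and Gins3 did not pass in WT and fell in HARE5Hs/Hs. The span of Gins2 overlaps Gse1. In FPKM of E12.5 WT, Gins2 came first at 51.8 ± 7.58 and Gins3 last at 10.9 ± 0.959, and only Gins3 was separate from its neighbour.

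For the primase and polymerase alpha, 2 of 4 genes fell in WT and 4 of 4 in HARE5Hs/Hs, with a median age change of −0.27 in WT (range −0.53 to −0.17) and −0.54 in HARE5Hs/Hs (range −0.80 to −0.37). Pola2, the accessory subunit of polymerase alpha, measured 84.0, 97.4 and 94.5 CPM in E12.5 WT and 82.9, 99.8 and 87.9 CPM in E12.5 HARE5Hs/Hs. At E14.5 Pola2 measured 64.6, 60.0 and 66.8 CPM in WT and 66.0, 48.9 and 39.5 CPM in HARE5Hs/Hs. For Pola2, all 6 E14.5 libraries lay below all 6 E12.5 libraries, and the lowest E14.5 library was HARE5Hs/Hs replicate 3. Pola2 fell by 0.53 (SE 0.15, edgeR adjusted p = 0.016) in WT and by 0.80 (SE 0.15, edgeR adjusted p = 0.00108) in HARE5Hs/Hs. Prim2, the large primase subunit, measured 53.1, 56.3 and 54.8 CPM in E12.5 WT and 54.4, 58.3 and 55.1 CPM in E12.5 HARE5Hs/Hs. At E14.5 Prim2 measured 43.0, 51.4 and 52.0 CPM in WT and 45.1, 39.1 and 45.4 CPM in HARE5Hs/Hs. For Prim2, all 6 E14.5 libraries lay below all 6 E12.5 libraries, and the lowest E14.5 library was HARE5Hs/Hs replicate 2. Prim2 had an age change of −0.17 (SE 0.092, edgeR adjusted p = 0.182) in WT, which did not pass, and of −0.37 (SE 0.093, edgeR adjusted p = 0.00609) in HARE5Hs/Hs. Pola1, the catalytic subunit of polymerase alpha and the one X-linked member, measured 84.3, 90.6 and 74.4 CPM in E12.5 WT and 80.0, 83.7 and 79.6 CPM in E12.5 HARE5Hs/Hs. At E14.5 Pola1 measured 65.0, 70.7 and 75.1 CPM in WT and 62.9, 52.2 and 50.3 CPM in HARE5Hs/Hs. For Pola1, the ages did not overlap in HARE5Hs/Hs but did in WT, and the lowest E14.5 library was HARE5Hs/Hs replicate 3, with all 3 HARE5Hs/Hs values at that age below the 3 WT values. Pola1 had an age change of −0.24 (SE 0.10, edgeR adjusted p = 0.0775) in WT, which did not pass, and of −0.56 (SE 0.10, edgeR adjusted p = 0.000943) in HARE5Hs/Hs. Pola2 did not pass in WT when any one of E12.5 WT replicate 2 or 3 or E14.5 WT replicate 2 was left out, with a change of −0.47 to −0.50. Pola1 also passed in WT with DESeq2 size factors and with the DESeq2 Wald test, at −0.27 in each. In FPKM of E12.5 WT the order was Prim1 at 57.0, Pola2 at 41.3, Prim2 at 30.7 and Pola1 at 16.1, and no neighbours overlapped.

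All 5 genes of polymerases delta and epsilon fell in both genotypes, with a median age change of −0.43 in WT (range −0.56 to −0.41) and −0.65 in HARE5Hs/Hs (range −0.77 to −0.30). Pole2, the second subunit of polymerase epsilon, measured 21.4, 27.9 and 24.9 CPM in E12.5 WT and 24.8, 27.6 and 24.9 CPM in E12.5 HARE5Hs/Hs. At E14.5 Pole2 measured 13.9, 17.5 and 19.1 CPM in WT and 16.0, 14.4 and 14.9 CPM in HARE5Hs/Hs. For Pole2, all 6 E14.5 libraries lay below all 6 E12.5 libraries, and the lowest E14.5 library was WT replicate 1. Pole2 fell by 0.56 (SE 0.14, edgeR adjusted p = 0.00927) in WT and by 0.77 (SE 0.14, edgeR adjusted p = 0.000987) in HARE5Hs/Hs. Pold2, a small subunit of polymerase delta, measured 67.0, 74.5 and 87.6 CPM in E12.5 WT and 67.2, 73.1 and 68.6 CPM in E12.5 HARE5Hs/Hs. At E14.5 Pold2 measured 54.5, 60.7 and 55.4 CPM in WT and 61.0, 56.3 and 51.9 CPM in HARE5Hs/Hs. For Pold2, all 6 E14.5 libraries lay below all 6 E12.5 libraries, and the lowest E14.5 library was HARE5Hs/Hs replicate 3. Pold2 fell by 0.43 (SE 0.10, edgeR adjusted p = 0.00707) in WT and by 0.30 (SE 0.10, edgeR adjusted p = 0.0285) in HARE5Hs/Hs. Pold3, an accessory subunit of polymerase delta, measured 129, 144 and 128 CPM in E12.5 WT and 123, 138 and 127 CPM in E12.5 HARE5Hs/Hs. At E14.5 Pold3 measured 96.6, 106 and 98.5 CPM in WT and 89.9, 76.0 and 78.6 CPM in HARE5Hs/Hs. For Pold3, all 6 E14.5 libraries lay below all 6 E12.5 libraries, and the lowest E14.5 library was HARE5Hs/Hs replicate 2, with all 3 HARE5Hs/Hs values at that age below the 3 WT values. Pold3 fell by 0.41 (SE 0.084, edgeR adjusted p = 0.00309) in WT and by 0.67 (SE 0.085, edgeR adjusted p = 0.000127) in HARE5Hs/Hs. Pole2 did not pass in WT when E12.5 WT replicate 2 was left out, with a change of −0.45. Pold2 did not pass in HARE5Hs/Hs when any one of E12.5 HARE5Hs/Hs replicate 1, 2 or 3 or E14.5 HARE5Hs/Hs replicate 2 or 3 was left out, with a change of −0.23 to −0.31. Pold2 overlaps Aebp1 and Pole2 overlaps Klhdc1 in the GRCm38 annotation.

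The sliding clamp and its loader, 6 genes in all, fell in both genotypes, with a median age change of −0.35 in WT (range −0.44 to −0.32) and −0.60 in HARE5Hs/Hs (range −0.77 to −0.41). Pcna, the clamp that tethers polymerases, measured 353, 449 and 404 CPM in E12.5 WT and 414, 424 and 436 CPM in E12.5 HARE5Hs/Hs. At E14.5 Pcna measured 292, 322 and 346 CPM in WT and 291, 248 and 272 CPM in HARE5Hs/Hs. For Pcna, all 6 E14.5 libraries lay below all 6 E12.5 libraries, and the lowest E14.5 library was HARE5Hs/Hs replicate 2, with all 3 HARE5Hs/Hs values at that age below the 3 WT values. Pcna fell by 0.33 (SE 0.10, edgeR adjusted p = 0.0192) in WT and by 0.65 (SE 0.10, edgeR adjusted p = 0.000277) in HARE5Hs/Hs. Rfc4, a small subunit of the clamp loader, measured 50.9, 74.1 and 67.4 CPM in E12.5 WT and 69.3, 68.3 and 64.4 CPM in E12.5 HARE5Hs/Hs. At E14.5 Rfc4 measured 45.3, 51.2 and 52.3 CPM in WT and 41.1, 35.2 and 42.5 CPM in HARE5Hs/Hs. For Rfc4, the ages did not overlap in HARE5Hs/Hs but did in WT, and the lowest E14.5 library was HARE5Hs/Hs replicate 2, with all 3 HARE5Hs/Hs values at that age below the 3 WT values. Rfc4 fell by 0.37 (SE 0.13, edgeR adjusted p = 0.0378) in WT and by 0.77 (SE 0.13, edgeR adjusted p = 0.000558) in HARE5Hs/Hs. Rfc2, another small loader subunit, measured 115, 122 and 123 CPM in E12.5 WT and 111, 115 and 113 CPM in E12.5 HARE5Hs/Hs. At E14.5 Rfc2 measured 81.5, 107 and 97.4 CPM in WT and 86.8, 84.2 and 84.4 CPM in HARE5Hs/Hs. For Rfc2, all 6 E14.5 libraries lay below all 6 E12.5 libraries, and the lowest E14.5 library was WT replicate 1. Rfc2 fell by 0.33 (SE 0.086, edgeR adjusted p = 0.011) in WT and by 0.41 (SE 0.087, edgeR adjusted p = 0.00249) in HARE5Hs/Hs. Pcna did not pass in WT when any one of E12.5 WT replicate 2 or 3 or E14.5 WT replicate 1 was left out, with a change of −0.23 to −0.31. Rfc4 did not pass in WT when any one of E12.5 WT replicate 2 or 3 or E14.5 WT replicate 1, 2 or 3 was left out, with a change of −0.24 to −0.41. Rfc2 did not pass in WT when E12.5 WT replicate 3 was left out, with a change of −0.30. Rfc4 also did not pass in WT when only the libraries compared were fitted, at −0.40. Its span overlaps that of Eif4a2, an abundant translation factor. Per length, Pcna at 378 ± 44.6 FPKM in E12.5 WT was the highest of all members, and the loader subunits ran from Rfc2 at 90.6 to Rfc1 at 34.7, with Rfc3, Rfc4, Rfc5 and Rfc1 overlapping their neighbours.

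Single-strand binding genes, the RPA trimer, fell for 1 of 3 in WT and 2 of 3 in HARE5Hs/Hs, with a median age change of −0.23 in WT (range −0.43 to −0.079) and −0.53 in HARE5Hs/Hs (range −0.76 to −0.33). Rpa2, the middle subunit of the trimer, measured 95.8, 111 and 122 CPM in E12.5 WT and 101, 111 and 108 CPM in E12.5 HARE5Hs/Hs. At E14.5 Rpa2 measured 72.9, 85.8 and 84.3 CPM in WT and 72.2, 53.1 and 63.7 CPM in HARE5Hs/Hs. For Rpa2, all 6 E14.5 libraries lay below all 6 E12.5 libraries, and the lowest E14.5 library was HARE5Hs/Hs replicate 2, with all 3 HARE5Hs/Hs values at that age below the 3 WT values. Rpa2 fell by 0.43 (SE 0.12, edgeR adjusted p = 0.0135) in WT and by 0.76 (SE 0.12, edgeR adjusted p = 0.000379) in HARE5Hs/Hs. Rpa3, the smallest subunit, measured 21.9, 30.2 and 22.0 CPM in E12.5 WT and 22.0, 28.0 and 28.9 CPM in E12.5 HARE5Hs/Hs. At E14.5 Rpa3 measured 22.3, 23.0 and 24.9 CPM in WT and 20.1, 20.5 and 22.2 CPM in HARE5Hs/Hs. For Rpa3, the ages overlapped in both genotypes, and the lowest E14.5 library was HARE5Hs/Hs replicate 1, with all 3 HARE5Hs/Hs values at that age below the 3 WT values. Rpa3 had an age change of −0.079 (SE 0.15, edgeR adjusted p = 0.707) in WT, which did not pass, and of −0.33 (SE 0.15, edgeR adjusted p = 0.0846) in HARE5Hs/Hs, which did not pass. Rpa2 did not pass in WT when any one of E12.5 WT replicate 3 or E14.5 WT replicate 1 was left out, with a change of −0.33 to −0.38. Rpa3 passed in HARE5Hs/Hs when E12.5 HARE5Hs/Hs replicate 1 was left out, with a change of −0.43. Without E12.5 WT replicate 2 the WT value of Rpa3 was 0.11. Rpa1, the large subunit, fell in HARE5Hs/Hs and did not pass in WT. The 3 subunits overlapped with their neighbours in FPKM of E12.5 WT, at 74.5 ± 4.85 for Rpa1, 68.9 ± 8.14 for Rpa2 and 55.9 ± 10.9 for Rpa3.

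Okazaki fragment genes fell for 2 of 3 in WT and 3 of 3 in HARE5Hs/Hs, with a median age change of −0.46 in WT (range −0.58 to −0.15) and −0.63 in HARE5Hs/Hs (range −0.79 to −0.28). Lig1, the ligase that seals fragments, measured 264, 301 and 300.1 CPM in E12.5 WT and 261, 309 and 286 CPM in E12.5 HARE5Hs/Hs. At E14.5 Lig1 measured 176, 218 and 185 CPM in WT and 189, 156 and 149.7 CPM in HARE5Hs/Hs. For Lig1, all 6 E14.5 libraries lay below all 6 E12.5 libraries, and the lowest E14.5 library was HARE5Hs/Hs replicate 3. Lig1 fell by 0.58 (SE 0.11, edgeR adjusted p = 0.00202) in WT and by 0.79 (SE 0.11, edgeR adjusted p = 0.000214) in HARE5Hs/Hs. Rnaseh2a, the catalytic subunit of RNase H2, which removes RNA from DNA, measured 43.0, 51.8 and 50.3 CPM in E12.5 WT and 43.9, 46.1 and 48.7 CPM in E12.5 HARE5Hs/Hs. At E14.5 Rnaseh2a measured 43.1, 41.3 and 46.5 CPM in WT and 38.6, 36.8 and 38.9 CPM in HARE5Hs/Hs. For Rnaseh2a, the ages did not overlap in HARE5Hs/Hs but did in WT, and the lowest E14.5 library was HARE5Hs/Hs replicate 2, with all 3 HARE5Hs/Hs values at that age below the 3 WT values. Rnaseh2a had an age change of −0.15 (SE 0.090, edgeR adjusted p = 0.219) in WT, which did not pass, and of −0.28 (SE 0.091, edgeR adjusted p = 0.0245) in HARE5Hs/Hs. Rnaseh2a passed in WT when E12.5 WT replicate 1 was left out, with a change of −0.25. Rnaseh2a did not pass in HARE5Hs/Hs when any one of E12.5 HARE5Hs/Hs replicate 2 or 3 or E14.5 HARE5Hs/Hs replicate 2 or 3 was left out, with a change of −0.23 to −0.28. Fen1, the flap nuclease, fell in both genotypes and overlaps Tmem258 in the GRCm38 annotation.

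All 4 nucleotide supply genes fell in both genotypes, with a median age change of −0.43 in WT (range −0.62 to −0.32) and −0.67 in HARE5Hs/Hs (range −0.88 to −0.61). Rrm2, the small ribonucleotide reductase subunit made in S phase, measured 327, 436 and 369 CPM in E12.5 WT and 376, 416 and 357 CPM in E12.5 HARE5Hs/Hs. At E14.5 Rrm2 measured 234, 274 and 228 CPM in WT and 222, 197 and 204 CPM in HARE5Hs/Hs. For Rrm2, all 6 E14.5 libraries lay below all 6 E12.5 libraries, and the lowest E14.5 library was HARE5Hs/Hs replicate 2, with all 3 HARE5Hs/Hs values at that age below the 3 WT values. Rrm2 fell by 0.62 (SE 0.11, edgeR adjusted p = 0.00136) in WT and by 0.88 (SE 0.11, edgeR adjusted p = 0.000118) in HARE5Hs/Hs. Rrm1, the large subunit of the same enzyme, measured 424, 516 and 434 CPM in E12.5 WT and 453, 499 and 489.5 CPM in E12.5 HARE5Hs/Hs. At E14.5 Rrm1 measured 344, 374 and 386 CPM in WT and 346, 297 and 304 CPM in HARE5Hs/Hs. For Rrm1, all 6 E14.5 libraries lay below all 6 E12.5 libraries, and the lowest E14.5 library was HARE5Hs/Hs replicate 2. Rrm1 fell by 0.32 (SE 0.091, edgeR adjusted p = 0.018) in WT and by 0.61 (SE 0.091, edgeR adjusted p = 0.000304) in HARE5Hs/Hs. Rrm1 did not pass in WT when any one of E12.5 WT replicate 2 or E14.5 WT replicate 1 was left out, with a change of −0.21 to −0.29. Rrm2 was higher than Rrm1 per length, at 190.2 ± 27.7 against 121 ± 13.4 FPKM in E12.5 WT without overlap, followed by Tk1 at 81.3 and Tyms at 32.2. Tk1 overlaps Afmid in the GRCm38 annotation.

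Chromatin and histone mRNA members, Uhrf1 and Slbp, both fell in both genotypes. Uhrf1, which recognizes hemimethylated DNA behind the fork and recruits Dnmt1, measured 393, 500.1 and 446 CPM in E12.5 WT and 393, 458 and 379 CPM in E12.5 HARE5Hs/Hs. At E14.5 Uhrf1 measured 241, 300.4 and 268 CPM in WT and 266, 206 and 197 CPM in HARE5Hs/Hs. For Uhrf1, all 6 E14.5 libraries lay below all 6 E12.5 libraries, and the lowest E14.5 library was HARE5Hs/Hs replicate 3. Uhrf1 fell by 0.73 (SE 0.13, edgeR adjusted p = 0.0015) in WT and by 0.88 (SE 0.13, edgeR adjusted p = 0.000298) in HARE5Hs/Hs. Slbp, which binds the stem-loop of replication-dependent histone mRNAs, measured 91.6, 106 and 99.3 CPM in E12.5 WT and 108, 116 and 107 CPM in E12.5 HARE5Hs/Hs. At E14.5 Slbp measured 72.7, 70.4 and 74.8 CPM in WT and 65.2, 64.9 and 51.8 CPM in HARE5Hs/Hs. For Slbp, all 6 E14.5 libraries lay below all 6 E12.5 libraries, and the lowest E14.5 library was HARE5Hs/Hs replicate 3, with all 3 HARE5Hs/Hs values at that age below the 3 WT values. Slbp fell by 0.45 (SE 0.092, edgeR adjusted p = 0.0033) in WT and by 0.86 (SE 0.093, edgeR adjusted p = 6.19e-05) in HARE5Hs/Hs.

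**Figure D4:**
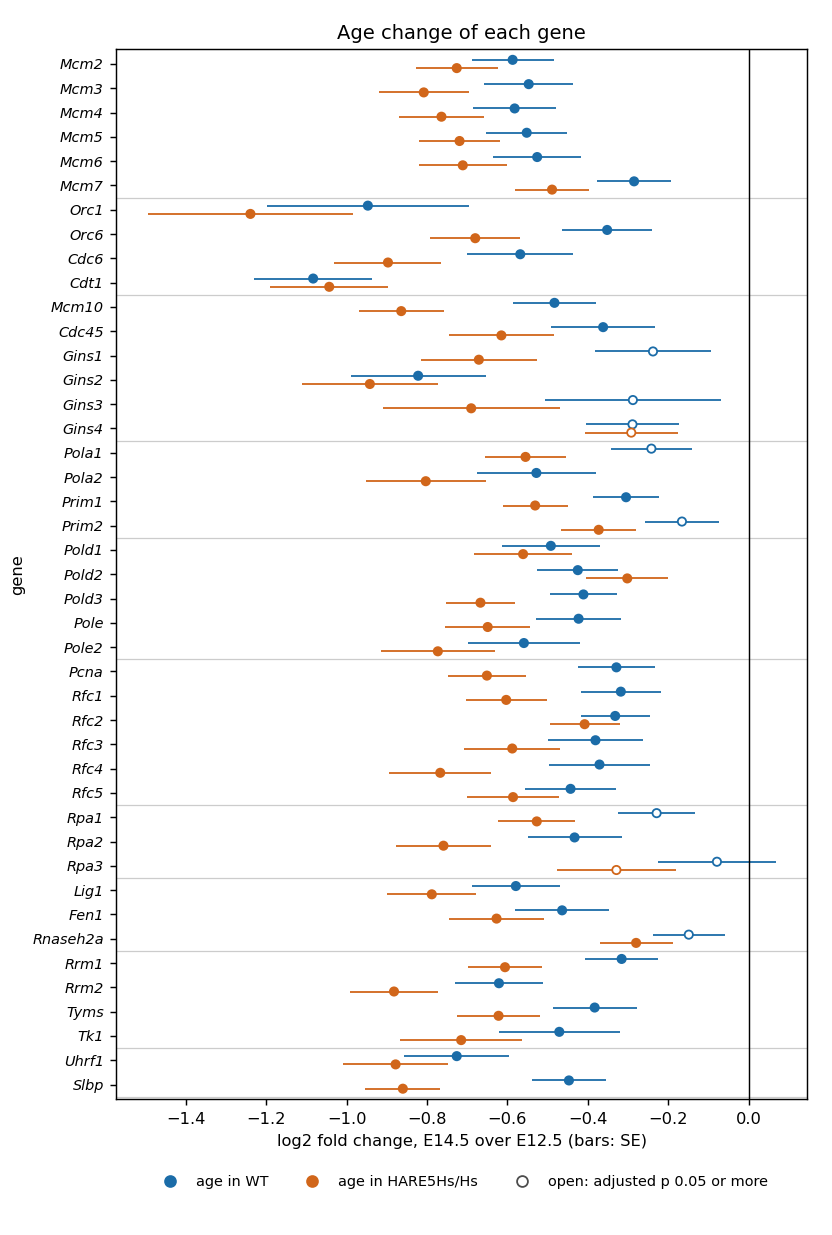
Log2 fold change from E12.5 to E14.5 for each of the 43 members in WT and HARE5Hs/Hs, with bars of 1 SE, filled where the gene passed edgeR's test. All values lie left of 0, from −1.24 (Orc1 in HARE5Hs/Hs) to −0.079 (Rpa3 in WT).

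Genes of the same pathways that are no members were read from 6 further lists. Of 15 other licensing and firing genes, 2 fell in WT and 8 in HARE5Hs/Hs, and 0 rose by edgeR's test, with medians of −0.12 and −0.38. Over all genes 15.2% fell in WT and 22.0% in HARE5Hs/Hs, so the WT count of that list was no larger a share than the background. Topbp1 fell by 0.31 (SE 0.065, edgeR adjusted p = 0.00379) in WT and by 0.53 (SE 0.065, edgeR adjusted p = 0.000107) in HARE5Hs/Hs. Gmnn fell by 0.73 (SE 0.19, edgeR adjusted p = 0.0104) in WT and by 1.00 (SE 0.19, edgeR adjusted p = 0.0012) in HARE5Hs/Hs. Topbp1 is a scaffold for origin firing and Gmnn is the inhibitor of Cdt1. Dbf4 had an age change of −0.30 (SE 0.12, edgeR adjusted p = 0.0594) in WT, which did not pass, and of −0.62 (SE 0.12, edgeR adjusted p = 0.00122) in HARE5Hs/Hs. Dbf4 activates the Cdc7 kinase. With DESeq2 size factors or the DESeq2 Wald test the WT count of called genes was 5, and without single libraries it ran from 1 (without E12.5 WT replicate 2) to 5 (without E12.5 WT replicate 1). Of 17 tested fork, polymerase and clamp genes, 6 fell and 2 rose in WT, and 11 fell and 2 rose in HARE5Hs/Hs. The shares of all genes that rose, 20.0% in WT and 23.7% in HARE5Hs/Hs, were larger than in that list. Dna2 fell by 0.49 (SE 0.10, edgeR adjusted p = 0.00303) in WT and by 0.62 (SE 0.10, edgeR adjusted p = 0.000472) in HARE5Hs/Hs. Tipin fell by 0.54 (SE 0.12, edgeR adjusted p = 0.00559) in WT and by 0.76 (SE 0.12, edgeR adjusted p = 0.000492) in HARE5Hs/Hs. Wdhd1 fell by 0.46 (SE 0.12, edgeR adjusted p = 0.0107) in WT and by 0.67 (SE 0.12, edgeR adjusted p = 0.00079) in HARE5Hs/Hs. Dna2 is a flap nuclease, and Tipin and Wdhd1 travel with the fork. Top1, which relieves torsion in transcribed and replicated DNA, and Rev3l, the catalytic subunit of polymerase zeta, were the genes that rose. Top1 rose by 0.31 (SE 0.075, edgeR adjusted p = 0.00854) in WT and by 0.23 (SE 0.075, edgeR adjusted p = 0.0277) in HARE5Hs/Hs. Rev3l rose by 0.53 (SE 0.17, edgeR adjusted p = 0.0309) in WT and by 0.52 (SE 0.17, edgeR adjusted p = 0.025) in HARE5Hs/Hs. The WT count of called fork genes was 4 when either E12.5 WT replicate 2 or E14.5 WT replicate 1 was left out, 5 without E14.5 WT replicate 3, and in HARE5Hs/Hs it was 8 without E12.5 HARE5Hs/Hs replicate 2.

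Among 20 further nucleotide genes, 10 fell and 2 rose in WT, and 15 fell and 2 rose in HARE5Hs/Hs. Over all genes, 15.2% fell and 20.0% rose in WT, and 22.0% fell and 23.7% rose in HARE5Hs/Hs. The share that rose was thus smaller in that list than over all genes. Shmt1 fell by 0.61 (SE 0.11, edgeR adjusted p = 0.00128) in WT and by 0.95 (SE 0.11, edgeR adjusted p = 7.66e-05) in HARE5Hs/Hs. Dut fell by 0.57 (SE 0.11, edgeR adjusted p = 0.00164) in WT and by 0.71 (SE 0.11, edgeR adjusted p = 0.000277) in HARE5Hs/Hs. Samhd1 fell by 0.55 (SE 0.094, edgeR adjusted p = 0.00119) in WT and by 0.61 (SE 0.10, edgeR adjusted p = 0.000358) in HARE5Hs/Hs. Shmt1 supplies folate-bound carbon units, Dut removes dUTP, and Samhd1 breaks down deoxynucleotides. Rrm2b, the ribonucleotide reductase subunit that serves cells outside S phase, rose while Rrm2 fell. Its levels were 9.27 ± 1.13 CPM in E12.5 WT, 15.1 ± 1.10 CPM in E14.5 WT, 10.1 ± 1.11 CPM in E12.5 HARE5Hs/Hs and 16.6 ± 2.09 CPM in E14.5 HARE5Hs/Hs (SD, n = 3). Rrm2b rose by 0.71 (SE 0.16, edgeR adjusted p = 0.00566) in WT and by 0.73 (SE 0.16, edgeR adjusted p = 0.00322) in HARE5Hs/Hs. Cmpk1 had an age change of 0.29 (SE 0.086, edgeR adjusted p = 0.0227) in WT, and of 0.21 (SE 0.086, edgeR adjusted p = 0.0598) in HARE5Hs/Hs, which did not pass. Tk2 had an age change of 0.21 (SE 0.12, edgeR adjusted p = 0.213) in WT, which did not pass, and of 0.52 (SE 0.13, edgeR adjusted p = 0.00502) in HARE5Hs/Hs. Cmpk1 phosphorylates pyrimidine monophosphates, and Tk2 is the thymidine kinase of mitochondria. Of 12 chromatin replication genes, 7 fell in WT and 11 in HARE5Hs/Hs, beside the 15.2% and 22.0% of all genes that fell. In that list 0 rose by edgeR's test. Chaf1a fell by 0.60 (SE 0.11, edgeR adjusted p = 0.00196) in WT and by 0.75 (SE 0.12, edgeR adjusted p = 0.000339) in HARE5Hs/Hs. Chaf1b fell by 0.59 (SE 0.11, edgeR adjusted p = 0.002) in WT and by 0.75 (SE 0.11, edgeR adjusted p = 0.000318) in HARE5Hs/Hs. Asf1b fell by 0.75 (SE 0.14, edgeR adjusted p = 0.0016) in WT and by 0.81 (SE 0.14, edgeR adjusted p = 0.000631) in HARE5Hs/Hs. Those 3 genes encode histone chaperones that act behind the fork. The WT count of that list was 4 without E12.5 WT replicate 2, E12.5 WT replicate 3 or E14.5 WT replicate 1.

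In the list of E2F and S phase entry genes, 11 of 18 fell and 2 rose in WT, and 15 fell and 2 rose in HARE5Hs/Hs. E2f2 fell by 0.77 (SE 0.16, edgeR adjusted p = 0.00276) in WT and by 1.06 (SE 0.16, edgeR adjusted p = 0.000283) in HARE5Hs/Hs. E2f7 fell by 0.73 (SE 0.12, edgeR adjusted p = 0.0011) in WT and by 0.90 (SE 0.13, edgeR adjusted p = 0.000199) in HARE5Hs/Hs. E2f2 is an activating E2F and E2f7 a repressing one. The genes that rose in both genotypes were Rb1 and Rbl2, of the retinoblastoma family that restrains E2F. Of all genes tested, 20.0% rose in WT and 23.7% in HARE5Hs/Hs, larger shares than in that list. Rbl1, of the same family, was lower on average at E14.5. Its means at E12.5 and E14.5 were 78.1 and 68.0 CPM in WT and 81.4 and 56.0 CPM in HARE5Hs/Hs. Rb1 measured 50.4 ± 4.50 CPM in E12.5 WT, 87.8 ± 3.13 CPM in E14.5 WT, 52.7 ± 9.03 CPM in E12.5 HARE5Hs/Hs and 93.2 ± 6.15 CPM in E14.5 HARE5Hs/Hs (SD, n = 3). Rb1 rose by 0.80 (SE 0.12, edgeR adjusted p = 0.000473) in WT and by 0.82 (SE 0.12, edgeR adjusted p = 0.000216) in HARE5Hs/Hs. Rbl2 rose by 0.59 (SE 0.11, edgeR adjusted p = 0.00211) in WT and by 0.48 (SE 0.11, edgeR adjusted p = 0.00409) in HARE5Hs/Hs. Of the 16 mitosis genes, 9 fell in WT and 15 in HARE5Hs/Hs, and 0 rose by edgeR's test, with medians of −0.30 and −0.61. Birc5 fell by 0.66 (SE 0.14, edgeR adjusted p = 0.00363) in WT and by 1.05 (SE 0.14, edgeR adjusted p = 0.000159) in HARE5Hs/Hs. Plk1 fell by 0.59 (SE 0.11, edgeR adjusted p = 0.00224) in WT and by 0.73 (SE 0.11, edgeR adjusted p = 0.000371) in HARE5Hs/Hs. Aurkb fell by 0.54 (SE 0.10, edgeR adjusted p = 0.00213) in WT and by 0.61 (SE 0.10, edgeR adjusted p = 0.000648) in HARE5Hs/Hs. The WT count of called mitosis genes was 3 without E12.5 WT replicate 2, E12.5 WT replicate 3 or E14.5 WT replicate 1. Over all genes tested, 15.2% fell in WT and 22.0% in HARE5Hs/Hs.

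At E12.5, HARE5Hs/Hs and WT cortices differed in 0 members by edgeR's test, beside 0.0% of all genes called in either direction. No member had an unadjusted p under 0.05, beside 322 of 14311 genes, and the DESeq2 Wald test called 0 members. The median difference (HARE5Hs/Hs minus WT) was −0.028, with 27 of 43 members below 0, beside 0.002 over all genes. Leaving out E12.5 WT replicate 2 or E12.5 HARE5Hs/Hs replicate 1 turned that median above 0, to 0.034 and 0.016, the second being without the E12.5 library that stood apart. The members with the smallest p were Slbp at 0.15 (SE 0.092, unadjusted p = 0.117, edgeR adjusted p = 1.0), Cdt1 at −0.21 (SE 0.14, unadjusted p = 0.174, edgeR adjusted p = 1.0) and Pold2 at −0.13 (SE 0.10, unadjusted p = 0.21, edgeR adjusted p = 1.0). Slbp was the 1 member whose libraries did not overlap, all 3 HARE5Hs/Hs values being higher, beside 7.15% of all genes without overlap in either direction.

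At E14.5 the members leaned lower in HARE5Hs/Hs, and 0 passed. The background is 0.0% of all genes called by edgeR. Without adjustment, 20 of 43 members had p under 0.05, beside 1708 of 14311 genes, and the DESeq2 Wald test called 0 members and 35 of all genes. Without E14.5 HARE5Hs/Hs replicate 1, edgeR called 19 of all genes and 0 members. The median difference was −0.24, with 42 of 43 members below 0 and Gins4 above, beside a median of −0.007 over all genes. Members tended to be high or low together in an embryo, so these counts of members are not counts of independent observations. The spread of the median member between replicates of a group was 0.118 (log2). By role the medians ran from −0.16 for polymerases delta and epsilon to −0.31 for single-strand binding. For 16 members the libraries did not overlap, all lower in HARE5Hs/Hs, beside 8.93% of all genes: Mcm5, Mcm7, Mcm10, Pola1, Pold3, Pcna, Rfc1, Rfc4, Rfc5, Rpa1, Rpa2, Rpa3, Fen1, Rnaseh2a, Rrm2 and Slbp. The smallest p values belonged to Mcm10 at −0.42 (SE 0.11, unadjusted p = 0.00179, edgeR adjusted p = 0.342), Pold3 at −0.30 (SE 0.085, unadjusted p = 0.00381, edgeR adjusted p = 0.342) and Pola1 at −0.35 (SE 0.10, unadjusted p = 0.00465, edgeR adjusted p = 0.342). The median was −0.32 without HARE5Hs/Hs replicate 1, the library within the WT range, and −0.19 without replicate 2 or without replicate 3, the library that stood apart. Mitosis genes leaned the same way, with a median of −0.27 and 9 of 16 at an unadjusted p under 0.05, and the neuron sum was higher in HARE5Hs/Hs replicates 2 and 3 than in the other 4 libraries of that age. The part of these values in the difference was not tested.

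**Figure D5:**
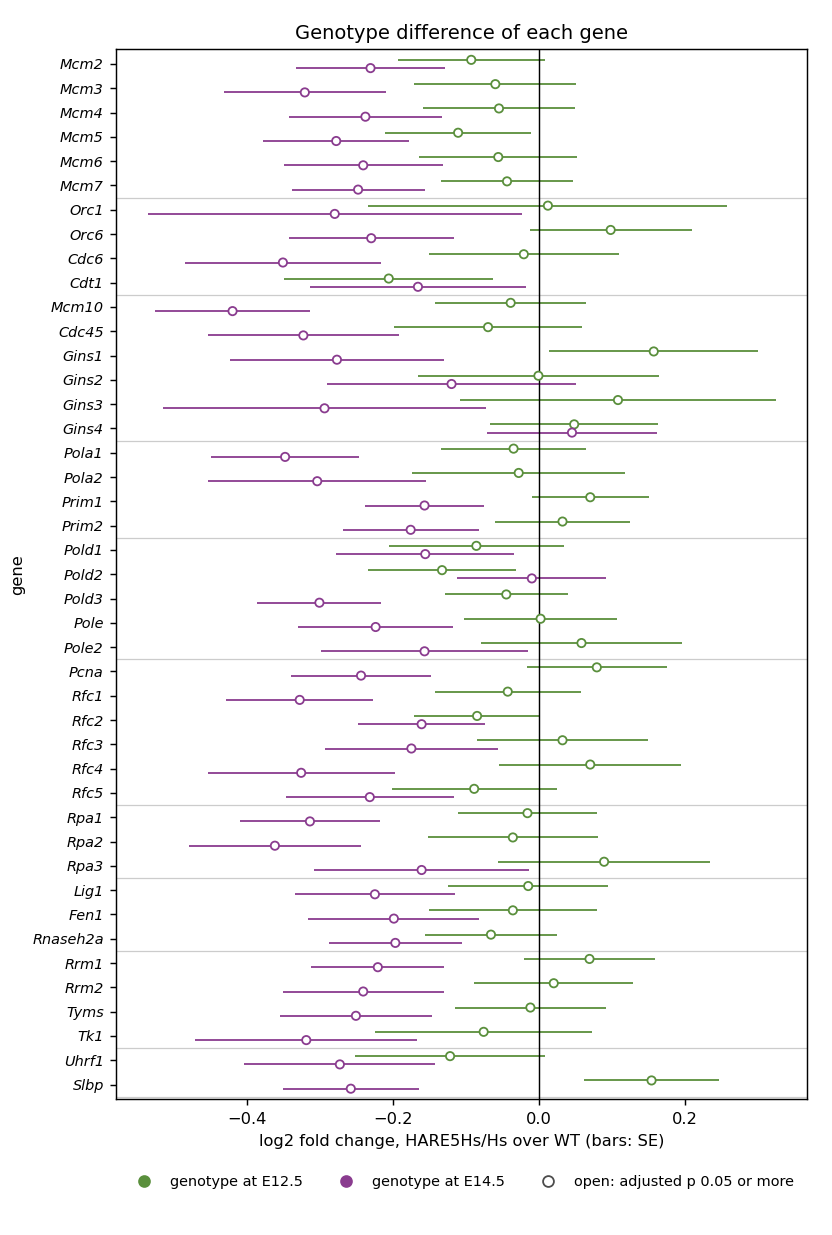
Log2 difference of HARE5Hs/Hs minus WT for each member at E12.5 and at E14.5, with bars of 1 SE. The E12.5 values scatter on both sides of 0 between −0.21 and 0.16, the E14.5 values lie left of 0 except for Gins4, and 0 of 43 members passed edgeR's test at either age (0 at E12.5 and 20 at E14.5 by an unadjusted p under 0.05, 0 by DESeq2).

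Over both ages together, 0 members passed edgeR's test and 0.0% of all genes did, 10 members had an unadjusted p under 0.05 beside 1366 of all genes, and the DESeq2 Wald test called 0 members. The median was −0.13, beside −0.005. Mcm10 had the smallest p, at −0.23 (SE 0.074, unadjusted p = 0.00896, edgeR adjusted p = 0.508), then Pold3 at −0.17 (SE 0.059, unadjusted p = 0.0127, edgeR adjusted p = 0.508) and Mcm5 at −0.20 (SE 0.071, unadjusted p = 0.0173, edgeR adjusted p = 0.508). The genotype by age interaction, which asks whether the fall with age was steeper in HARE5Hs/Hs, passed for 0 members by edgeR and by DESeq2, beside 0.0% of all genes by edgeR. It was below 0 for 41 of 43 members, Cdt1 and Pold2 being above, with a median of −0.24 beside −0.017 over all genes. Here too the members are not independent of each other. An unadjusted p under 0.05 was found for 7 members and 731 genes. The smallest p values were those of Slbp at −0.41 (SE 0.13, unadjusted p = 0.00804, edgeR adjusted p = 0.921), Mcm10 at −0.38 (SE 0.15, unadjusted p = 0.0239, edgeR adjusted p = 0.921) and Pcna at −0.32 (SE 0.14, unadjusted p = 0.0344, edgeR adjusted p = 0.921). The larger count of falls in HARE5Hs/Hs (41 against 35) is therefore not shown to be a difference between genotypes.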

How the data were processed

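Cortices of 12 single embryos were dissected, extracted with TRIzol and sequenced from TruSeq Stranded mRNA libraries, per the labels' protocols. Per the submitters' processing notes, STAR, mm39 and DESeq2 were used; the names of the deposited tables pair STAR with Salmon, which estimates counts per transcript. The sources used here do not give versions or the strand setting of the counting. Per the file headers, both deposited tables hold, for every library, the authors' expected count and FPKM. Each also holds the authors' log2 fold change and p-value between the ages, for 1 genotype. The deposited expected counts were whole numbers and needed no rounding. In each table, 12 further columns (6 libraries) match no sample and were not used here.

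The expected counts were filtered (filterByExpr, minimum count 10), scaled by TMM and fitted with edgeR 4.0.16 (R 4.3.3) by the quasi-likelihood test over all 12 libraries, with 1 mean per group and no block. Contrasts were age in each genotype, genotype at each age and over both, and their interaction, with a threshold of 0.05 on the Benjamini-Hochberg p within each. The SE is the log2 fold change over the square root of F, which is approximate. A prior count of 2 was added for log2 CPM. P-values set a difference against the spread between single embryos within groups. No litter is labelled, so the spread between litters cannot be told apart.

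Members and gene lists were chosen with earlier results of these data known. Named members are the largest and smallest mean age change of each role, the 3 smallest p in each genotype and interaction contrast, and the X-linked member; named pathway genes are the 3 smallest p of each list and those called against its direction. The tissue label was checked with Emx1; another item is not reported here. Lists of marker genes were radial glia, intermediate progenitors, neurons, meninges, choroid plexus and hem, erythroid, endothelial, microglia, ventral telencephalon and Xist. Promoter windows are from RefSeq (GRCm38.p6). Alternatives were the DESeq2 1.42.0 Wald test, edgeR with DESeq2 size factors, leaving the filter out or asking for 1 CPM in 3 libraries, fitting the compared libraries alone, blocking on the replicate number, adding Xist (log2 CPM) as a covariate, and leaving out each library.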

Additional observations from a re-analysis of the deposited data

Results flagged for a closer look

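Slbp stood on opposite sides of 0 at the 2 ages: the difference of HARE5Hs/Hs minus WT was 0.15 at E12.5 and −0.26 at E14.5. All 3 HARE5Hs/Hs libraries lay above all 3 WT libraries at E12.5 and below them at E14.5. Over all genes, the libraries did not overlap for 7.15% at E12.5 in either direction, and for 8.93% at E14.5 with HARE5Hs/Hs lower. Slbp did not pass edgeR's test at E12.5 (unadjusted p = 0.117) or at E14.5 (unadjusted p = 0.0166, edgeR adjusted p = 0.342). It was picked as the member with the smallest interaction p. The genotype by age interaction of Slbp was −0.41 (SE 0.13, unadjusted p = 0.00804, edgeR adjusted p = 0.921) by edgeR's quasi-likelihood test. The change of side is thus not shown to be a difference between the ages.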

How the results depend on the processing

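No called result changed direction under the alternatives run. Age calls in WT moved most when a library was left out: 20 to 38 members and 3245 to 4843 of all genes were called, with the lowest values without E12.5 WT replicate 2 for members and without E14.5 WT replicate 1 for all genes. Under the other alternatives the WT count of members was 33 to 38 and the HARE5Hs/Hs count 41 to 42. In WT, leaving out 1 library gave 1 to 5 called licensing and firing genes, 4 to 9 fork genes, 4 to 9 chromatin genes and 3 to 11 mitosis genes. In HARE5Hs/Hs it gave 8 to 13 fork genes. The WT licensing and firing count was 5 with DESeq2 size factors and 5 with the DESeq2 Wald test. Genotype differences at E14.5 passed for 35 of all genes with the DESeq2 Wald test and for 0 to 19 when a library was left out, 19 being without E14.5 HARE5Hs/Hs replicate 1. The interaction passed for 1 gene with DESeq2 and for 0 to 2 when a library was left out. Genotype and interaction contrasts called 0 members under each alternative run, edgeR and DESeq2 alike; unadjusted p under 0.05 was found for 0, 20, 10 and 7 members in the 4 contrasts. Across the named members, 2235 alternative values kept their side of the threshold, 39 lost a call, 10 gained one and 4 uncalled values moved. No label pairs same-numbered embryos, and deviations from the group means of same-numbered WT and HARE5Hs/Hs libraries had correlations of 0.0963, 0.336 and 0.124 (E12.5) and −0.112, −0.144 and −0.443 (E14.5). With the replicate block the WT count of members was 33 and the HARE5Hs/Hs count 41, and Rfc4 in WT did not pass, at −0.37. The lowest count of a member, 72, was in Orc1, which also had the largest SE of the members in both age contrasts (0.25 and 0.26). The causes of these shifts were not tested.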
